A study of Mus musculus with 2 samples.

Results

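The genes described are 83 mouse protein-coding genes of 9 developmental transcription factor families, out of 21911 protein-coding gene symbols annotated in GENCODE M21. They were chosen by symbol alone, as prefix and number, and comprised 19 Sox, 9 Pax, 8 Lhx, 14 Nkx, 6 Dlx, 6 Irx, 12 Tbx and 3 Pitx genes and 6 Six-family genes. Tbx21, which encodes the T-helper 1 regulator T-bet, was left out of the Tbx family. Their chromatin was measured by ATAC-seq, in which a transposase cuts and tags accessible DNA, in primary T-helper 1 cells of the mouse strain C57BL/6NJ. The study held 1 group and 2 biological replicates, with no other condition, genotype or time to compare. The labels give both replicates the same donor identifier and do not say whether separate animals were used, so the spread between them may be technical.

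Each of the 9 families is built on a DNA-binding domain: the HMG box in Sox proteins, the paired domain in Pax, the T-box in Tbx, and variants of the homeodomain in Lhx, Nkx, Dlx, Irx, Pitx and Six-family proteins. Most members act in embryos, where they set the fate of neural, skeletal, heart, eye, kidney or gland cells, and many have CpG-rich promoters. In cell types that do not use them, such promoters are commonly held silent by Polycomb complexes while the DNA stays unmethylated. A few members have known lymphocyte roles, such as Pax5 in B cells and Sox4 and Sox13 in T cells.

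The lists of open regions held 98786 regions on chromosomes in replicate 1 and 91403 in replicate 2, of which 86.6% and 93% overlapped a region of the other list. Joining them gave 84380 shared regions. The read depth behind the lists is unknown. Among markers of the labelled cell type, all 7 T cell genes had an open promoter, at a low median percentile of 19.7 and 18.6 by promoter signal among open genes. Cd4 itself stood at 0.229 and 0.305, and the epithelial and stromal markers at a median of 29.1 and 31.6. Of the markers of other cells, 2 of 5 B cell genes were open (Pax5 and Cd79b, with Cd79a and Ms4a1 among those not open), as were 1 of 5 myeloid, 4 of 5 epithelial and stromal, and 2 of 4 neuronal genes. What part other cells had in any member's regions was not tested. Weak opening in every cell and strong opening in a few cells cannot be told apart in such bulk lists.

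Most of the developmental genes had an open promoter, but by mean percentile of promoter signal only 3 of these 67 ranked above the median of open genes. A promoter was called open where a region found in both replicates lay within 1 kb of any annotated transcript start of the gene. By this rule 67 of the 83 members were open, or 80.7%, against 65.9% of all protein-coding genes. All 8 Lhx, 6 Dlx, 3 Pitx and 6 Six-family genes were open, as were 12 of 14 Nkx, 10 of 12 Tbx, 14 of 19 Sox, 6 of 9 Pax and 2 of 6 Irx genes. The comparison with all genes went the other way among CpG-rich genes and in shortened lists. A start was called CpG-rich where the surrounding 500 bp on either side had a GC content of at least 55% and a ratio of observed to expected CpG of at least 0.6. Such a start was present in 78.3% of members, against 46% of all protein-coding genes. Among genes with a CpG-rich start, 54 of 65 members were open (83.1%), against 94.1% of all such genes. Among the rest, 13 of 18 members were open (72.2%), against 41.8% of all such genes. When each list was limited to its 50000 regions of highest −log10 p, 27 members kept an open promoter, or 32.5%, against 58.7% of all genes.

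The 16 members without an open promoter included 4 of the 6 Irx genes (Irx1, Irx2, Irx4 and Irx6) and the neural progenitor genes Sox1, Sox2 and Sox3. The others were Sox11 and Sox14, the paired-box genes Pax1, Pax7 and Pax8, the homeobox genes Nkx2-9 and Nkx6-3, and Tbx10 and Tbx22. At Sox2 each list held a region near the start, with a signal of 2.63 in replicate 1 and 2.3 in replicate 2, but these regions did not overlap each other. No other member without an open promoter had a promoter region in either list.

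Promoter signal is the enrichment that the authors' region caller gave to the strongest region at a promoter. Over the 67 open members it ranged from 2.11 to 12.9 in replicate 1 and from 2.12 to 13.7 in replicate 2. The median was 4.96 and 5.14 in the members, against 11.3 and 11.1 in all 14436 open protein-coding genes. The upper quartile of the members, 6.52 and 6.53, lay below the lower quartile of all open genes, 8.09 and 7.9. Ranked among open protein-coding genes, the median member stood at percentile 8.08 in replicate 1 and 9.53 in replicate 2. A rank by −log10 p, which also grows with read number and width, put the median member at percentile 7.31 and 7.25. No member was strong, meaning at or above percentile 90 in both replicates, where 7.83% of open genes were. The highest members, Sox30, Sox13 and Tbx3, were below that mark, and by −log10 p their mean percentiles were 20.9, 30.3 and 20.2. Weak promoters, at or below percentile 10 in both replicates, numbered 31 of 67 among members (46.3%), against 8.75% of open genes.

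**Figure D1:**
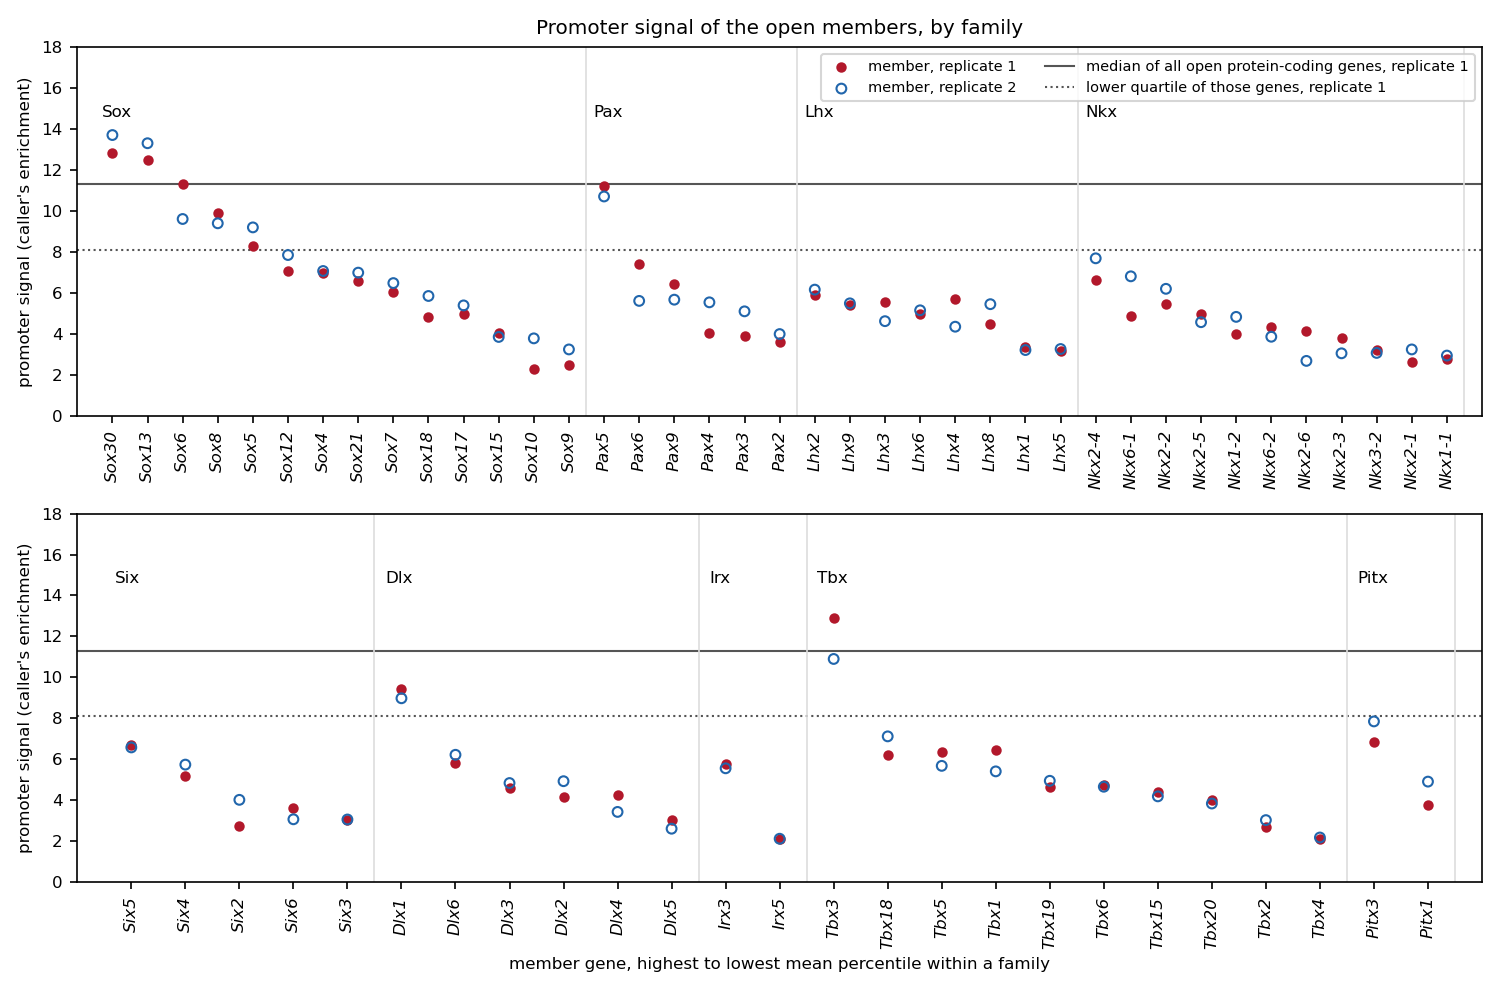
Promoter signal (caller's enrichment, vertical axis) of 64 of the 67 open members, with filled points for replicate 1 and open circles for replicate 2, ordered within each family by mean percentile. The solid line marks the replicate 1 median of all open protein-coding genes (11.3) and the dotted line their lower quartile (8.09), and most members lie below the dotted line in both replicates.

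The DNA at the summits of 5 member promoters, or just beside it at Tbx3, is shown because these are the ends of the range. Sox30, Sox13, Tbx3 and Pax5 had the highest mean percentiles, and Tbx4 lay beside Irx5 at the bottom within 1 kb of a start. Each stretch is mm10 sequence around the replicate 1 summit, read 5′ to 3′ on the strand of the gene. It is up to 201 bases long and without bases annotated as untranslated. The Tbx3 stretch, shortened in this way, ends just before its summit. Capitals mark matches to the short motifs described further on.
Sox30, chr11:45980520-45980720, plus strand: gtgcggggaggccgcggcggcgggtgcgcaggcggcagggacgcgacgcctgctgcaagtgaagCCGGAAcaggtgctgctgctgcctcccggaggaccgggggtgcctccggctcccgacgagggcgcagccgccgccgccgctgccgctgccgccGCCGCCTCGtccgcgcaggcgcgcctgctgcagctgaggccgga
Sox13, chr1:133385622-133385822, minus strand: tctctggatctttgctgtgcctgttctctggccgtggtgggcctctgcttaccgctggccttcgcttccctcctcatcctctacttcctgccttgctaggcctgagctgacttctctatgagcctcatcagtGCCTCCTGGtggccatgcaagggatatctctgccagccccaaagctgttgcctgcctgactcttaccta
Tbx3, chr5:119670573-119670668, plus strand: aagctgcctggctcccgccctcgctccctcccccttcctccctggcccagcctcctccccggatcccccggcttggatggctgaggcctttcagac
Pax5, chr4:44704345-44704545, minus strand: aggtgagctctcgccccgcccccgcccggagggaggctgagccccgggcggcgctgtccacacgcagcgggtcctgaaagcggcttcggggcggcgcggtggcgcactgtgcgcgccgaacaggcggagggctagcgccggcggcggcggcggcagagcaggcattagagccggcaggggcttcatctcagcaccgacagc
Tbx4, chr11:85890484-85890684, plus strand: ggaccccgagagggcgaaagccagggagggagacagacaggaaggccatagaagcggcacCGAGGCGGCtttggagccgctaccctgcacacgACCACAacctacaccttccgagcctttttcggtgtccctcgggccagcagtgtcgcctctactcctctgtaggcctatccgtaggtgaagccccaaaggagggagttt
The Sox30 stretch overlaps an exon and held 31 CpG dinucleotides at a GC content of 79.6%. The Pax5 stretch held 27 at 75.6% and the weak Tbx4 stretch 12 at 61.7%. The Sox13 stretch lies in an intron and held 3 at 57.2%, the fewest of these 5 despite the second highest signal in replicate 2.

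Sox genes had the highest median of the families with more than 3 open genes, with a signal of 6.78 in replicate 1 and 7.02 in replicate 2 over 14 open genes. Sox30, which is required for sperm formation, had a signal of 12.8 and 13.7 and stood at percentile 62.7 and 73.8. Its region (chr11:45979921-45981204) covered the start, with the summit 310 bp downstream in replicate 1. Sox13, a gene of γδ T cells, had 12.5 and 13.3 and stood at percentile 60.8 and 70.4. That region (chr1:133385429-133386274) lay at an internal start of the gene, with its summit at −196 bp from it in both replicates. The mean percentile of Sox13 was 65.6, and 40 where starts of coding transcripts alone were used. Sox6, a cartilage and red cell regulator, had 11.3 and 9.6, but its region also lay within 1 kb of a start of the neighbouring gene 1110004F10Rik. Its summit lay more than 1000 bp from any Sox6 start, at −1568 and −1555 bp, and the mean percentile of Sox6 was 43.5 within 1 kb but 7.09 within 500 bp and 7.32 where the summit had to lie within 1 kb. Sox8, a neural crest and testis gene, had 9.87 and 9.39. Sox5, the cartilage partner of Sox6, had 8.27 and 9.19. Sox8 and Sox5 lay below the median of all open genes in each replicate. The SoxC genes expressed in lymphocytes were lower, with 7.06 and 7.84 at Sox12 and 6.96 and 7.06 at Sox4. At the low end were the cartilage and testis regulator Sox9 (2.49 and 3.23) and the neural crest gene Sox10 (2.29 and 3.77). Sox10 also had the largest signal difference between replicates, 1.64-fold, but its values were taken at different summits of 1 joined region. In replicate 1 the part used was 207 bp wide, with its summit 1926 bp from the nearest start. In replicate 2 it was 2037 bp wide, with its summit at 610 bp. The strongest replicate 1 region within 1 kb of a start had 2.28.

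Pax5, the regulator of B cell commitment, was the highest Pax gene. Its strongest promoter region (chr4:44703161-44704991) had a signal of 11.2 in replicate 1 and 10.7 in replicate 2, at percentile 48.9 and 46.1, and at a mean percentile of 21.2 by −log10 p. The next were the eye regulator Pax6, with 7.38 and 5.6, and Pax9, which is needed for tooth and thymus formation, with 6.44 and 5.66. Pax2, a kidney and optic gene, was lowest with 3.58 and 3.98. These values came from different regions, chr19:44759221-44760054 in replicate 1 and chr19:44754859-44757527 in replicate 2. The 6 open Pax genes had medians of 5.23 and 5.56.

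The LIM-homeodomain genes were all open and all low, between 3.15 and 5.91 in replicate 1 and between 3.2 and 6.15 in replicate 2. Lhx2, which acts in forebrain and hair follicle development, was highest with 5.91 and 6.15. It was followed by the gonad gene Lhx9, with 5.39 and 5.48, and the pituitary gene Lhx3, with 5.54 and 4.61. Lhx6, an interneuron gene, had 4.96 and 5.14, and Lhx5, a forebrain gene, was the lowest by percentile with 3.15 and 3.25. Spread within this family was smaller than the gap to the median of all open genes.

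Nkx genes were the lowest of the families with more than 2 open members, with medians of 4.24 and 4.2, and 8 of their 12 open promoters were weak. Nkx2-4, a close relative of the thyroid and lung gene Nkx2-1, led with 6.61 and 7.68. The islet cell and motor neuron gene Nkx6-1 had 4.85 and 6.8, and its relative Nkx2-2 had 5.45 and 6.19. With coding starts alone the mean percentile of Nkx2-2 was 0.425, against 12.4 with all starts. Nkx2-3, which directs the vessels of spleen and gut, had 3.79 and 3.04 at its promoter. Nkx1-1 had the lowest mean percentile, with 2.77 and 2.93. Nkx2-6 differed 1.55-fold between replicates, with 4.14 and 2.67.

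Among Six-family genes, which act in muscle, kidney, eye and sensory organs, Six5 had 6.72 and 6.58 and Six4 had 5.17 and 5.74. Six5 stood at percentile 16.6 and 16.7 by signal but at 60.7 and 60.4 by −log10 p, and no other member was above the median by that measure. Its region was 2913 and 2921 bp wide and also lay within 1 kb of a start of the kinase gene Dmpk. Six3, a forebrain and eye gene, had the lowest mean percentile of the family, with 3.03 and 3.06. In replicate 1 the kidney progenitor gene Six2 was lower, with 2.75 in replicate 1 and 4.02 in replicate 2.

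Dlx genes, which pattern the jaws and forebrain interneurons, lie in adjacent pairs and share many regions with their neighbours. Dlx1 had a signal of 9.45 and 8.98, against 4.15 and 4.93 at its neighbour Dlx2. Dlx6 had 5.81 and 6.22, whereas its neighbour Dlx5 had 3.05 and 2.61. Dlx3 had 4.58 and 4.84, taken from a shared region of which the replicate 1 part lay beyond 1 kb of the start, and the strongest replicate 1 region within 1 kb had 2.79. Its mean percentile of 7.23 was 2.01 within 500 bp, 2.15 where the summit had to lie within 1 kb, and 20.1 within 2.5 kb. The 2 open Irx genes, of a family that patterns heart, limb and neural tissue, were Irx3 with 5.75 and 5.56 and Irx5 with 2.11 and 2.12. Irx5 had the lowest promoter percentile of all open members, 0.104 as a mean of both replicates. This rested on the 1 kb limit: a region 1.38 kb upstream of its start had a signal of 10.9 and 10.7. Within 2.5 kb of a start Irx5 stood at percentile 45.5. That upstream region lay within 1 kb of a start of another annotated gene, so its signal may not belong to Irx5.

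Tbx3, a limb, heart and mammary gland regulator, had a signal of 12.9 in replicate 1 and 10.9 in replicate 2, at percentile 64.2 and 47.9. Its region (chr5:119669913-119671502) had its summit 4 and 10 bp downstream of a start. The other Tbx genes were well below it in both replicates. Tbx18, an epicardial and urinary tract gene, had 6.23 and 7.12, and the forelimb and heart gene Tbx5 had 6.37 and 5.68. Tbx6, a gene of paraxial mesoderm, had 4.76 and 4.66, and Tbx19, a pituitary gene, had 4.65 and 4.95. The hindlimb gene Tbx4 was lowest, with 2.12 and 2.18. As background from outside the set, Tbx21 itself had a promoter signal of 5.48 and 5.65, at percentile 10.4 and 11.9. Pitx3, a dopamine neuron gene, had 6.85 and 7.85, and its mean percentile of 20.9 was 3.13 with coding starts alone. Pitx1, a hindlimb and pituitary gene, had 3.77 and 4.91.

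Signal in the 2 replicates differed by a median of 1.11-fold in open members, against 1.05-fold in all open genes. Only Sox10 and Nkx2-6 differed by more than 1.5-fold, which was 2.99% of members, against 0.499% of open genes. Widths differed more than 1.5-fold in 22.4% of members, against 4.7% of open genes. A width belongs to the strongest region of each replicate, which was not the same joined region at Pax2 and Tbx1. At most members with such a difference it was the same joined region. At Six4 the widths were 1266 and 2682 bp with summits at 711 and 715 bp from the start. At Tbx2 they were 1638 and 889 bp with the summit at 583 bp in both replicates. Within a joined region the parts used could still differ, as at Sox10. The order of members by signal had a Spearman correlation of 0.908 between replicates over 67 genes, which is a description across genes that share the same 2 libraries.

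Member promoters were low in signal but of ordinary width. The median width of the strongest promoter region was 1209 and 1228 bp in open members, against 1266 and 1270 bp in all open genes. Regions of at least 2000 bp in both replicates were present at 10 of 67 members (14.9%), against 7.36% of open genes. These included Lhx4, Lhx6, Nkx2-2, Nkx3-2, Pax6, Pitx3, Six5, Sox5 and Sox12. In replicate 1 the widest was at Nkx3-2, a skeletal and spleen gene, with 3449 bp in replicate 1 and 2691 bp in replicate 2 at a signal of 3.21 and 3.06. In replicate 2 the region of Six5, with 2921 bp, was wider. Lhx4 had 2674 and 2436 bp and Sox12 had 2452 and 2435 bp. The strongest region of Lhx1 and of Sox21 was wide in replicate 1 alone, with 3108 and 2787 bp, against 1336 and 1422 bp in replicate 2. The 30 members with a mean percentile above 10 had median widths of 1478 and 1720 bp, against 1300 and 1301 bp in the 12999 open genes of that range. At or below percentile 10 the medians were 755 and 852 bp in 37 members, against 752 and 741 bp in 1437 open genes.

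The summits of member promoters lay farther from the start than in most genes. The median distance from summit to nearest start was 387 and 370 bp in members, against 80 and 82 bp in all open genes. Summits within 250 bp of a start were found in 40.3% and 35.8% of members, against 76.8% and 76.4% of open genes. The gap was also present among weak promoters: at or below a mean percentile of 10, the medians were 407 and 411 bp in 37 members, against 176 and 187 bp in the 1437 open genes of that range. Distance was taken to the nearest annotated start, and members had a median of 2 starts, against 3 in all protein-coding genes. Among genes with a CpG-rich start the median was 2 in members, against 5 in all such genes. The part of this in the gap was not tested. Summits lay downstream of the start in 61.2% and 56.7% of members, against 40.4% and 40.6% of open genes. At 9 members in replicate 1 and 10 in replicate 2 the summit was more than 1000 bp from any start. At some of these, such as Nkx2-4 and Lhx1, the shared region still covered the 5′ end of the gene. At others, such as Sox6, only its flank reached the promoter window.

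**Figure D2:**
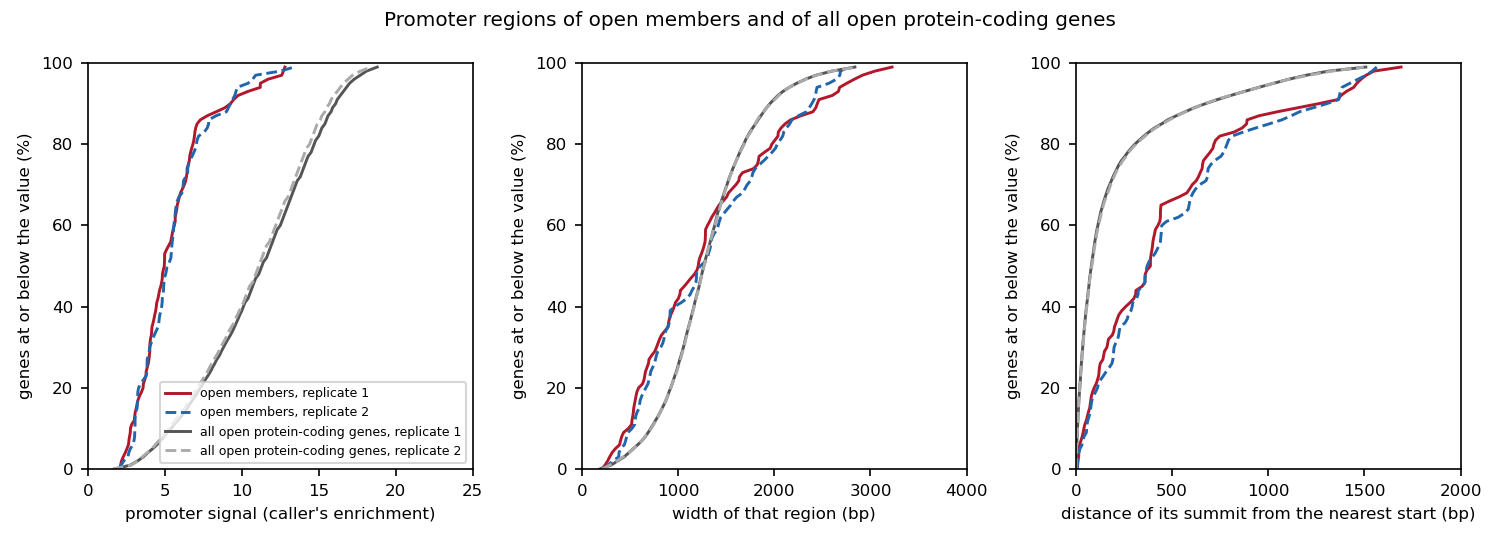
Cumulative share of genes (vertical axis, percent) at or below a given promoter signal (left), width of that region in bp (middle) and distance of its summit from the nearest start in bp (right), for the 67 open members in colour and all 14436 open protein-coding genes in grey, with a solid line for replicate 1 and a dashed line for replicate 2, drawn to the 99th percentile. Member signals lie left of those of all genes (median 4.96 and 5.14, against 11.3 and 11.1), widths overlap, and member summits lie farther out (median 387 and 370 bp, against 80 and 82 bp).

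Around the genes, members had about as many open regions as all protein-coding genes, but members with CpG-rich starts had fewer than all genes with such starts. Counting from 20 kb before a gene to 20 kb past it, the median was 4 shared regions in members and 4 in all protein-coding genes, and the means were 4.72 in members and 5.17 in all genes. Among genes with a CpG-rich start, the median was 4 and the mean 4.58 in members, against a median of 6 and a mean of 7.19 in all such genes. These windows include the gene, and members with a CpG-rich start were shorter, at a median length of 7252 bp against 28762 bp in all such genes. Set against genes of the same length decile, the median member stood at percentile 51. With a CpG-rich start, the median percentile was 49.9 in members and 60.5 in all such genes. No shared region was found around 9 members (Irx1, Irx6, Nkx2-9, Pax1, Sox2, Sox3, Sox11, Sox14 and Tbx22), or 10.8%, against 20.2% of all genes. Among genes with a CpG-rich start the share with no region was 10.8% in members, against 3.16% in all such genes. Sox5 had 47 regions, Sox6 had 14, Lhx2 had 10, and Dlx1 and Pax4 had 9 each. Dlx2, Dlx3, Dlx4, Lhx9, Nkx2-3, Nkx2-6, Sox4, Tbx2 and Tbx15 followed with 8 each. The Dlx median of 8 counts neighbours' regions repeatedly: 24 of the 368 distinct regions lay in windows of more than 1 member, such as the pairs Dlx1 and Dlx2, Dlx3 and Dlx4, and Dlx5 and Dlx6.

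**Figure D3:**
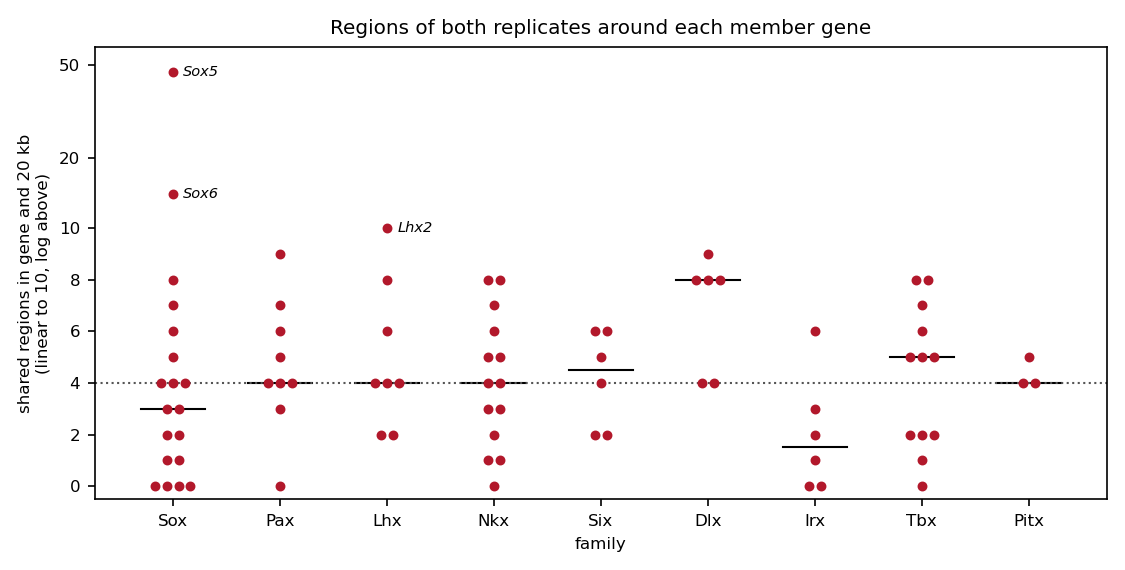
Number of shared regions from 20 kb before to 20 kb past each member gene (vertical axis, linear to 10 and logarithmic above), by family, with each point a gene, a bar at the family median and a dotted line at the median of all protein-coding genes (4). Sox5 with 47, Sox6 with 14 and Lhx2 with 10 regions lie at or above 10, and 9 members lie at 0.

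Outside promoters the member windows held 220 regions, or 59.8% of 368, against 74.5% of all 84380 shared regions. Every window was drawn around a gene and so holds an annotated start, whereas the 74.5% covers the whole genome. Windows of other genes were not set beside these, so the lower share cannot be read as a trait of members. Sox5 alone gave 41 intronic, 3 exonic and 1 intergenic of these 220, and Sox6 gave 8 intronic and 2 exonic. Values over the 220 therefore lean on these 2 genes. Their median signal was 5.1 and 4.84, against 6.37 and 6.15 over all 62842 shared regions outside promoters. Promoter regions in member windows, of whichever gene, had medians of 4.76 and 4.92, against 9.05 and 8.84 over all promoter regions. The gap to all regions was larger at promoters than outside them.

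The 10 strongest of the 220 regions outside promoters in member windows are described here. They were picked as the highest, so their rank is no trait of these windows. Whether strong regions were more or less frequent there than among all 62842 regions outside promoters was not tested. The highest lay 11.8 kb downstream of the start of Nkx2-3, between genes (chr19:43623651-43624488), with a signal of 19.5 in replicate 1 and 18.9 in replicate 2. A further region 18.7 kb from that start (chr19:43630722-43631372) had 16.8 and 16.2, while the Nkx2-3 promoter itself had 3.79 and 3.04. Sox6 held an intronic region 304 kb from its 5′ end with 19 and 15.9, and another at 516 kb with 16.9 and 18.1. Sox5 held intronic regions at 914 kb with 16.3 and 16.9 and at 923 kb with 15.2 and 14.8. A region 8.19 kb upstream of Sox12 (chr2:152405777-152406800) had 18 and 16.1, above the 7.06 and 7.84 of the Sox12 promoter. Pax5 held an intronic region 85.4 kb from its 5′ end (chr4:44624532-44625420) with 16.5 and 16.1. The remaining entries of the 10 strongest were a region 23.2 kb from Six2, with 16.8 and 15.9, and a region 26.6 kb from Tbx10, with 14.4 and 14.9. All 10 stood between percentile 93.7 and 99.8 of regions outside promoters in both lists. Which gene, if any, such a region acts on was not measured.

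The sequences under 2 of the strongest of these regions are shown because their signal exceeded that of every member promoter, again in mm10 and 201 bases around the replicate 1 summit, on the plus strand.
Nkx2-3 downstream, chr19:43624035-43624235: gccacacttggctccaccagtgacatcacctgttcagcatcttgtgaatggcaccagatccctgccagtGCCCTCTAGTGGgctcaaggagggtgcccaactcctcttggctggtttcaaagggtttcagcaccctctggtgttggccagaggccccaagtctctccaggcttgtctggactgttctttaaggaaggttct
Sox6 intron, chr7:115734214-115734414: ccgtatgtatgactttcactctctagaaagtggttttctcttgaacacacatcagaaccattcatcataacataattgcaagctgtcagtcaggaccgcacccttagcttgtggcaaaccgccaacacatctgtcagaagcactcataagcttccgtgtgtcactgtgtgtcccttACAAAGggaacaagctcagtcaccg
In the Nkx2-3 stretch, capitals mark a match to the CTCF consensus, the sequence bound by the insulator protein CTCF. In the Sox6 stretch they mark the letters shared by Sox and Tcf factors.

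Most regions counted for Sox5 and Sox6 lay inside the gene. This is largely set by the window, which adds only 20 kb on either side of these long genes. Sox5 spans 954 kb, and of its 47 regions 41 were intronic, 3 exonic, 2 at promoters and 1 intergenic. Their median signal was 7.2 and 7.37. Sox6 spans 568 kb and held 8 intronic, 2 exonic and 4 promoter regions, with medians of 8.56 and 7.79. At Sox5 the count stood at percentile 99.3 among genes of its length decile, and at Sox6 it stood at percentile 69. The decile of the longest genes has no upper limit, so these percentiles adjust for length only in part.

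**Figure D4:**
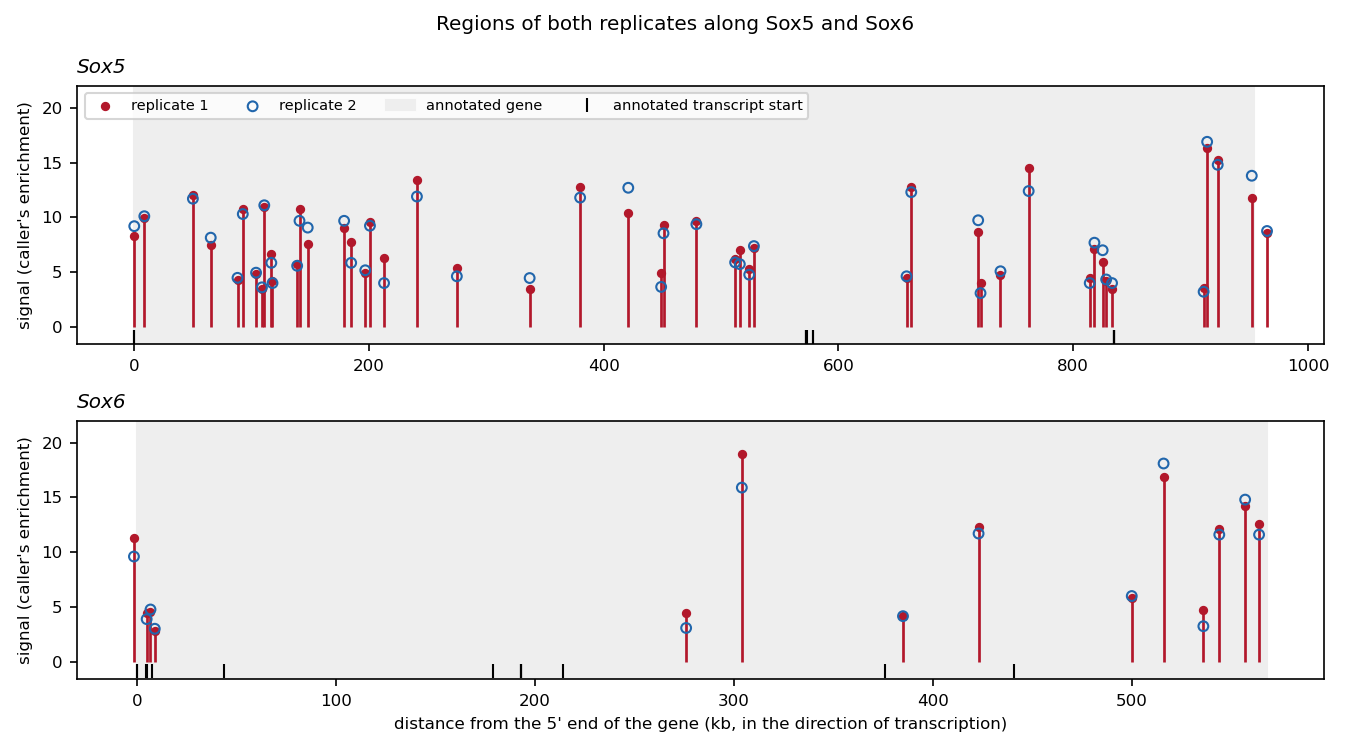
Signal (caller's enrichment, vertical axis) of each shared region against its distance from the 5′ end of the gene in kb in the direction of transcription, for Sox5 (top) and Sox6 (bottom), with filled points for replicate 1, open circles for replicate 2, grey shading for the annotated gene and ticks for annotated transcript starts. Signals inside the genes reach 16.3 and 16.9 at Sox5 and 19 and 18.1 at Sox6, above the strongest promoter regions of both genes (8.27 and 9.19, and 11.3 and 9.6).

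Windows of 201 bp centred on the summits were scanned for short motifs, read on either strand. The letters were CCGGAA for ETS factors, TGTGGT for RUNX, TGANTCA for AP-1, GGTGTGA for T-box factors, ACAAAG for Sox and Tcf factors, TAATTA for homeodomains, CCAAT for the CCAAT box and CNAGGNGGC for the core of CTCF sites. None of these contains another, and the longer CTCF consensus, added after the windows had been seen, can overlap the core. A match is a string of letters and no measure of binding. ETS letters were present at 11.9% and 10.4% of the 67 member promoters, against 20.8% and 20.7% of all open promoters. RUNX letters were present at 14.9% and 13.4%, against 10.1% and 10.1%, and CCAAT at 26.9% and 26.9%, against 28.9% and 28.6%. AP-1 letters were found at 2.99% and 2.99% of member promoters, against 7.01% and 7.16%, and Sox and Tcf letters at 5.97% and 4.48%, against 7.65% and 7.86%. CTCF core letters were found at 13.4% and 8.96%, against 10.6% and 10.3%. T-box, homeodomain and CTCF consensus letters were in no member window, against 2.36% and 2.39%, 0.679% and 0.686%, and 1.79% and 1.69% of all open promoters.

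Outside promoters, the 220 regions around members differed from all 62842 in base composition, with a median GC content of 52.4% and 52.2%, against 48% and 48%. AP-1 letters were in 23.2% and 21.4% of them, against 30.8% and 30.5%, and RUNX letters in 16.8% and 18.2%, against 25.7% and 25.6%. ETS letters went the other way, with 7.73% and 6.82%, against 3.19% and 3.17%, as did the CTCF core, with 10.5% and 8.18%, against 5.78% and 5.73%. Sox and Tcf letters were in 11.8% and 12.3%, against 16.7% and 16.8%. The remaining motifs had 21.4% and 20.9% for CCAAT (all 19.7% and 19.8%), 3.18% and 3.64% for T-box (5.12% and 5.09%), 2.27% and 1.36% for homeodomain (2.42% and 2.4%) and 4.09% and 4.55% for the CTCF consensus (4.78% and 4.72%). The part of GC content in these differences was not tested. The 220 regions come from windows around genes and the 62842 from the whole genome, and the part of this was not tested either. Nor was that of Sox5 and Sox6, which supplied many of the 220 regions.

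Genes for the protein partners of these families had a higher median promoter signal than the families themselves, a difference that was not tested. Of 30 partner genes in 5 lists, 27 were open (90%), against 65.9% of all protein-coding genes and 94.1% of those with a CpG-rich start. A CpG-rich start was present in 66.7% of the partner genes. The 27 open genes had median signals of 8.91 and 9.03 and median percentiles of 30.7 and 32.9. None of the 27 was strong, 3 were weak and 10 were wide, where 7.83%, 8.75% and 7.36% of all open genes were strong, weak and wide. Among partners of Six-family proteins, the Eya and Dach genes, 5 of 6 were open, led by Eya3 with 15 and 15.2 and Eya2 with 14.9 and 15, while Eya4 was not open. Of the Ldb, Lmo and Ssbp genes, whose proteins join LIM factors into complexes, 7 of 9 were open, and Ldb1 had 6.91 and 6.62. Ldb2 and Lmo3 were not open. All 5 Groucho corepressor genes were open, with 12.9 and 12.6 at Tle4 and a region of 4172 and 4150 bp at Tle3. All 9 Pbx, Meis and Pknox genes, whose proteins bind DNA with homeodomain factors, were open, with 14.5 and 13.9 at Pbx4 and 1.94 and 2.07 at Pbx2. Paxip1, a partner of Pax proteins, had 11.3 and 11.1.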

How the data were processed

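The deposited files are lists of open regions in narrowPeak form on mm10, called from each replicate alone, per the labels. Which aligner and region caller made them is not given in the sources used here. Names of regions contain ASTARR and insert, whose meaning is not stated, so the assay follows the labels. The authors deposited for each region a signal (the caller's enrichment, whose comparison level is not stated), −log10 p, −log10 q (at least 1.01 in replicate 1 and 1 in replicate 2), a display score that was not used, and a summit offset. Read depth is not in the lists, so no counting interval is given, and depth limits how firmly weak or unlisted promoters can be read.

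The 89 and 85 regions off chromosomes 1 to 19, X and Y were left out. Regions of both lists that overlapped by at least 1 bp were joined, keeping the strongest signal of each replicate. Genes came from GENCODE M21, with 27 entries that repeat a symbol joined to it, and sequence from GRCm38.p6. A promoter took, in each replicate, the strongest signal of the joined regions that reached within 1 kb of any start. Percentiles are among open protein-coding genes within a replicate. No chance test was made: 1 group of 2 replicates has no contrast, and members are described beside all genes. Python 3.11.15 with pandas 2.3.3, numpy 2.4.6, pysam 0.24.0 and matplotlib 3.10.9 was used, and the code was tested on simulated lists.

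Members, gene lists and motifs were chosen with earlier results of these data known. The weak and wide classes and the CTCF consensus were chosen after values had been seen. Named members were the 3 highest and the lowest of each family by percentile, the 10 with most regions (ties included), the 10 widest promoters, all not open, a fixed list known in lymphocytes, and the 10 strongest regions outside promoters. A few genes this covers are not reported here. Nkx2-6, Dlx2, Dlx5 and other members outside this rule were named after their values were seen. Alternatives varied the distance to a start, the threshold and overlap of regions, the ranked value, the starts used, the window and the replicates.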

Additional observations from a re-analysis of the deposited data

How the results depend on the processing

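No paired analysis was possible because there was 1 group only. The count of open members was 67, and it was 58 with −log10 q of at least 5, 63 within 500 bp, 67 within 2.5 kb, 66 with coding starts only, 61 with a reciprocal overlap of 50% and 68 with either replicate alone. It was 27 among the 50000 regions of highest −log10 p in each list, where fewer regions enter by construction. The median member percentile, 8.8 as a mean of both replicates, was 7.17 by −log10 p and 6.17 among genes with CpG-rich promoters, and lay between 8.08 and 9.53 with either replicate alone. The count of strong members was 0 under every alternative run for it (−log10 p, percentile 80, summit within 1 kb, either replicate alone). The median of 4 regions around members was 3 with −log10 q of at least 5 (all genes 4), 6 with 50 kb on either side (all genes 9), 2 in the gene body (all genes 1), 2 outside promoters (all genes 2) and 5 with either replicate alone (all genes 5). The median width of 1218 bp was 1322 bp for all bases covered, 1299 bp for the widest region, and between 1209 and 1228 bp with either replicate alone. Among single promoters, the rank of Irx5, Sox6, Sox13, Pitx3, Nkx2-2 and Dlx3 moved with the distance or starts used, as given with each. Other members moved too. Within 2.5 kb the mean percentile of Lhx6 was 17.7 against 8.8, of Nkx3-2 11.1 against 1.75 and of Tbx4 8.19 against 0.139. With the summit within 1 kb that of Lhx6 was 0.552. Tbx5 and Tbx6 had no open promoter within 500 bp or with the summit within 1 kb. The cause of these shifts was not tested. Unknown depth limits what the members without a region can show.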

Other observations

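A list of 41 other developmental factors of the Gata, Hand, Neurog, Ascl, Olig, Otx, En, Msx, Emx, Gsx, Gbx, Fox and Tfap2 families, none of them a member of the 9 families, had values close to those of the members. Of these 41 genes 33 were open (80.5%), against 65.9% of all protein-coding genes and 94.1% of those with a CpG-rich start. A CpG-rich start was present in 78% of the 41. The 33 open genes had median signals of 5.12 in replicate 1 and 4.74 in replicate 2 and median percentiles of 8.83 and 7.45. None was strong and 19 of the 33 were weak, where 7.83% and 8.75% of all open genes were strong and weak. Their summits lay at a median of 350 and 324 bp from the nearest start. Foxa3, a liver and endoderm factor, was highest with a signal of 13.1 and 11.7, followed by the neural gene Neurog2 with 8.66 and 8.34. Gata5, an endoderm and heart gene, was lowest with 2.49 and 2.46. Foxa2, Gbx2, Msx1, Neurog3, Olig1 and Tfap2b were among those not open. The list was chosen with earlier results of these data known, and its likeness to the members was not tested.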
